A study of Mus musculus with 12 samples.

Results

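Mgl2 and Clec10a are the 2 mouse genes that encode the macrophage galactose-type C-type lectins. They were taken as the rows of the deposited gene table that map to these symbols, 2 of 57186 genes, and both were found. The table holds 12 bulk tumours formed by 4T1, a line of mouse mammary carcinoma cells that serves to model triple-negative disease. In 6 tumours, called Tn, the 4T1 cells carried a CRISPR/Cas9-mediated silencing of Cosmc (C1galt1c1), and in the other 6, called WT, they were the parental 4T1 cells. The silencing was in the tumour cells, and the labels give no edit in the host cells, the known source of these lectins. All tumours were labelled as breast tissue of 1 batch, and tumours of different sizes were chosen in both groups. The labels used here give no mouse strain, age, time of tumour growth or number of edited clones, and they name no agent given to either group.

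Cosmc is the chaperone that the enzyme C1galt1 needs to put galactose on the first sugar of mucin-type O-glycans. Without it that sugar, N-acetylgalactosamine on serine or threonine, stays bare, which is the Tn antigen. The mouse lectin encoded by Mgl2 is known to bind N-acetylgalactosamine, Tn included, while the one encoded by Clec10a is known for binding galactose-bearing Lewis X structures, and the human genome has a single counterpart, CLEC10A. Both lectins are made by macrophages and immature dendritic cells, Mgl2 marks a subset of dermal and type 2 dendritic cells, and in macrophages of mice both genes are known to be induced by interleukin 4 and interleukin 13. The question the comparison addresses is how much RNA of each lectin the Tn and WT tumours held, and how that relates to the RNA of the cells that make them.

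The genes lie beside each other on the plus strand of chromosome 11 in GRCm39. Mgl2 (ENSMUSG00000040950) spans chr11:70021155-70028376 and Clec10a (ENSMUSG00000000318) spans chr11:70047023-70061660, each with 10 blocks of exons, and no other annotated gene overlaps either. The stretches below come from the coding sequences in the GENCODE M39 transcripts and are shown because they hold the sugar-binding motif. The capitals mark the codons for glutamine, proline and aspartate, the signature of C-type lectins that bind galactose and N-acetylgalactosamine.
Mgl2: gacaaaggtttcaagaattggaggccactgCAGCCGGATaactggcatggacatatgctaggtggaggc
Clec10a: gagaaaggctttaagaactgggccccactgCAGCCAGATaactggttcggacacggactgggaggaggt
The stretches cover coding bases 793 to 861 of Mgl2 and 745 to 813 of Clec10a, and 51 of their 69 bases are the same. The coding sequences encode 332 residues for Mgl2 and 304 for Clec10a, with the motif found once in each, starting at residue 275 in Mgl2 and 259 in Clec10a. Aligned over 913 bases, they were 93.3% identical.

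Such close genes can share reads. The longest coding run that the 2 genes share without a difference was 183 bases, at coding bases 547 to 729 of Mgl2 and 499 to 681 of Clec10a, and is shown as the longest stretch that does not tell the genes apart.
Shared run: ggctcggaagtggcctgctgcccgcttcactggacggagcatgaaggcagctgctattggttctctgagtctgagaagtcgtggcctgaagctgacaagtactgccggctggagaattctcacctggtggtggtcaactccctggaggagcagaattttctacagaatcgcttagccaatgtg
Of all 100-base windows, 5.39% of those in the Mgl2 transcript and 3.83% of those in the Clec10a transcript also occurred in the other, and of all 50-base windows the shares were 13.9% for Mgl2 and 9.97% for Clec10a. A read that lies wholly in such a window matches both genes unless its mate lies outside it, and how many pairs this touched was not tested. The counting command in the file header sets no option to count reads that map to several places.

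The deposited raw counts summed to between 113575859 and 156880766 per tumour, and within a group the biological coefficient of variation was 0.358. Of the 19255 genes tested with edgeR's quasi-likelihood test, 3752 rose and 3342 fell in Tn tumours at an adjusted p under 0.05, so 36.8% of all genes were called in either direction, 19.5% higher and 17.4% lower. The silenced gene, C1galt1c1, averaged 11.3 ± 0.775 CPM, counts scaled to library size, in Tn tumours and 19.6 ± 3.05 CPM in WT tumours (SD, n = 6 each), and its log2 fold change was -0.80 ± 0.11 (SE) with an edgeR adjusted p of 0.000201. All 6 Tn tumours were below all 6 WT tumours. The tumours also hold host RNA, for which the labels give no edit. How much of the C1galt1c1 RNA in Tn tumours came from host cells or from edited cells was not tested. Tn tumours 4 and 6 and WT tumour 6 stood apart from their groups, by the summed CPM of B cell, keratinocyte and adipocyte genes, and results that rest on them are given without them as well.

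Mgl2 was far higher in Tn tumours than in WT tumours. It had 80.4, 94.6, 58.7, 50.3, 54.5 and 60.1 CPM in Tn tumours 1 to 6, against 6.79, 16.9, 6.31, 4.33, 4.98 and 5.58 CPM in WT tumours 1 to 6. Every Tn tumour was above every WT tumour, and the lowest Tn tumour still had more than the highest WT tumour, number 2, which stood apart from the other WT tumours. The means were 66.5 ± 17.3 CPM in Tn and 7.47 ± 4.68 CPM in WT (SD, n = 6 each), from 6821 to 12332 counts per Tn tumour and 574 to 2096 counts per WT tumour. On the log2 scale Mgl2 changed by 3.15 ± 0.34 (SE), or 8.89-fold, with an approximate 95% interval of 2.49 to 3.81 and an edgeR adjusted p of 6.43e-05, in a table where 19.5% of all genes rose at this threshold. Exact two-sided permutation of the group labels over the 12 tumours gave p = 0.00216, the smallest that its 924 assignments allow. By the size of its rise Mgl2 was number 155, and by its p-value number 161, of the 19255 genes tested. Groups that do not overlap in either direction were found for 17.2% of all genes, and every Tn above every WT tumour for 8.81%. Without WT tumour 2 the log2 fold change of Mgl2 was 3.58. In bulk tumours, more cells that make a lectin and more of its RNA per cell cannot be told apart.

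Clec10a, the close relative of Mgl2, showed no such separation. It had 17.5, 11.2, 4.85, 8.74, 2.75 and 5.23 CPM in Tn tumours 1 to 6, against 0.888, 4.14, 4.57, 5.28, 7.85 and 9.7 CPM in WT tumours 1 to 6. The groups overlapped widely: Tn tumours 1 and 2 were above all WT tumours, Tn tumour 5 was lower than all WT tumours but the lowest, and WT tumour 1 stood alone at the bottom. The means were 8.37 ± 5.39 CPM in Tn and 5.4 ± 3.07 CPM in WT (SD, n = 6 each), from 344 to 2605 counts per Tn tumour and 108 to 1216 per WT tumour. The log2 fold change of 0.63 ± 0.52 (SE) did not pass the test (edgeR adjusted p = 0.36, exact permutation p = 0.314). Its approximate 95% interval, -0.39 to 1.65, leaves room for a rise of Clec10a but lies wholly below the interval of Mgl2. Leaving out Tn tumour 1 moved the log2 fold change to 0.28, and leaving out WT tumour 6 moved it to 0.88, neither past the threshold.

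**Figure D1:**
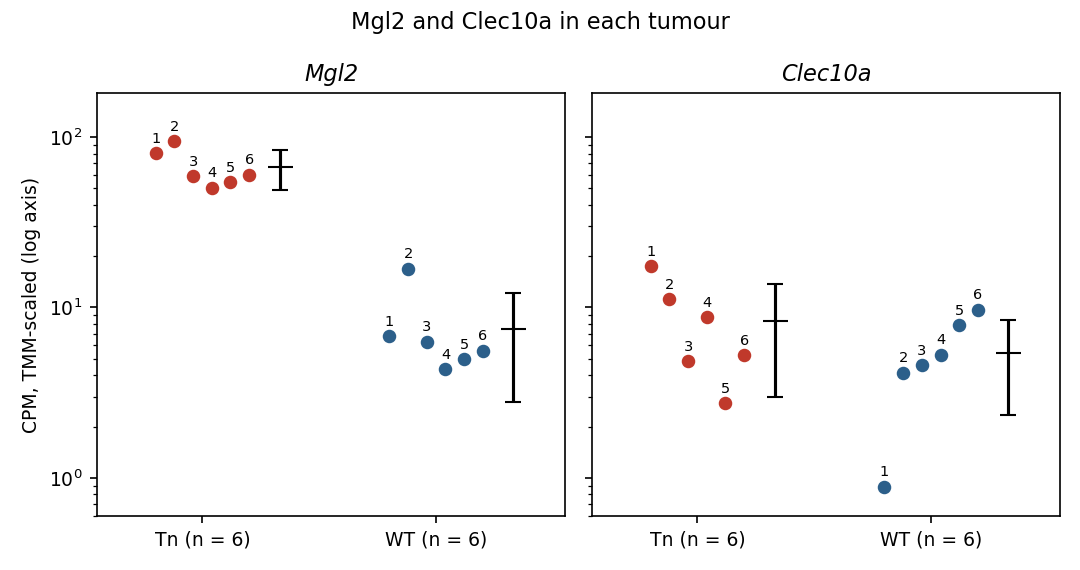
Mgl2 and Clec10a in CPM on a log axis, 1 point per tumour with its number, Tn on the left and WT on the right of each panel; black marks give the mean and bars the SD (n = 6 each). For Mgl2 the Tn tumours sit between 50.3 and 94.6 CPM, all above the WT tumours, while for Clec10a the groups overlap.

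The spread between tumours of a group was narrowest for Mgl2 in Tn tumours. The coefficient of variation of Mgl2 was 26.0% in Tn and 62.6% in WT, and its highest tumour had 1.88 times the CPM of its lowest in Tn and 3.89 times in WT. For Clec10a it was 64.3% in Tn and 56.8% in WT, with a highest tumour 6.35 times the lowest in Tn and 10.9 times in WT. The difference in spread was not tested.

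Per kilobase of exon, which makes levels of different genes comparable, Mgl2 was at 31.7 ± 8.25 CPM per kilobase in Tn and 3.57 ± 2.24 in WT (SD, n = 6 each). Clec10a was at 2.89 ± 1.86 CPM per kilobase in Tn and 1.86 ± 1.06 in WT. Of the summed level of both lectins, Mgl2 made up 86.4%, 92.1%, 94.4%, 88.9%, 96.5% and 94.1% in Tn tumours 1 to 6, against 91.4%, 84.9%, 65.6%, 53.2%, 46.8% and 44.4% in WT tumours 1 to 6. Mgl2 was the main lectin in every Tn tumour, and the WT tumours ran from mostly Mgl2 to slightly more Clec10a. The difference between the lectins was tested on the log2 ratio of their CPM, which was 3.20 ± 0.77 in Tn and 0.61 ± 1.53 in WT (SD, n = 6 each). The difference of 2.59 corresponds to a 6.03-fold higher ratio in Tn (exact permutation p = 0.00866, 0.0152 after Benjamini-Hochberg adjustment over 7 ratios). In 4 of 6 Tn tumours the ratio was above all WT tumours; Tn tumours 1 and 4 were below WT tumour 1, where Clec10a was lowest. Without Tn tumours 4 and 6 and WT tumour 6 the difference was 2.40 and the adjusted p 0.0694 by the exact permutation test.

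Since 9 of 15 pan-macrophage genes rose as well, each lectin was set against the level of these 15 genes, the mean of their log2 CPM. Mgl2 lay -1.0 ± 0.31 log2 units relative to this level in Tn and -3.41 ± 0.63 in WT (SD, n = 6 each). The difference of 2.41, or 5.33-fold, had every Tn tumour above every WT tumour (exact permutation p = 0.00216, adjusted 0.00756). Clec10a showed no such difference: it lay -4.20 ± 0.62 relative to that level in Tn and -4.02 ± 1.12 in WT, a difference of -0.18 (exact permutation p = 0.768). The sign of that small difference turned without Tn tumours 4 and 6 and WT tumour 6, where it was 0.02, and without WT tumour 6 alone, where it was 0.07.

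The same held against genes of dendritic cells and against a gene shared by all leukocytes, lymphocytes included. Relative to the genes shared by conventional dendritic cells (cDC) or marking type 2 cDC, Mgl2 was at 2.95 ± 0.66 in Tn and 0.16 ± 0.76 in WT, a difference of 2.79 log2 units or 6.91-fold, with all 6 Tn tumours higher (n = 6 each, exact permutation p = 0.00216, adjusted 0.00756). Relative to Ptprc, the pan-leukocyte gene that encodes CD45, it was at -0.91 ± 0.91 in Tn and -3.14 ± 0.57 in WT, a difference of 2.24 or 4.72-fold (exact permutation p = 0.00433, adjusted 0.0101). In that ratio 5 of 6 Tn tumours were above all WT tumours, and Tn tumour 4, at -2.65, was not. Clec10a differed by 0.20 relative to the cDC genes and by -0.35 relative to Ptprc (exact permutation, both adjusted p = 0.768), and the cDC difference was -0.15 without Tn tumour 1 and -0.11 without WT tumour 1. With the pan-macrophage level as a term in the edgeR fit the log2 fold change of Mgl2 was 2.54 ± 0.35 (adjusted p = 0.00248), and that of Clec10a was -0.58 ± 0.67 (adjusted p = 0.605).

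**Figure D2:**
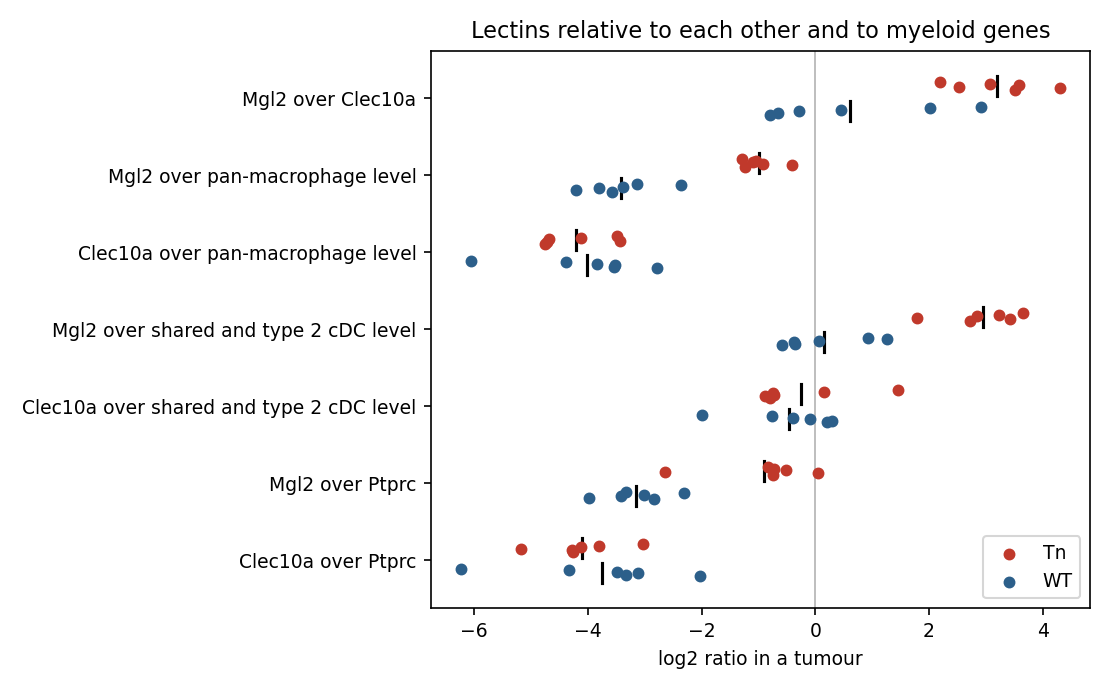
Log2 ratios of each lectin to the other, to the pan-macrophage level, to the shared and type 2 cDC level and to Ptprc, 1 point per tumour, Tn above WT in each row, with a black line at the group mean. Mgl2 lies higher in Tn in all 4 of its ratios, from 2.24 to 2.79 log2 units, and the 3 ratios of Clec10a to cell levels overlap.

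Of 15 pan-macrophage genes 9 rose and none fell, with a median log2 fold change of 0.95, where 3752 of all 19255 genes rose and their median was 0.01. The list's summed CPM ran from 2720 to 8820 in Tn and from 1880 to 3470 in WT, and none of its genes was at 0 in any tumour. C1qa, a chain of complement C1q, averaged 713 ± 310 CPM in Tn and 234 ± 53.8 CPM in WT (log2 fold change 1.61, edgeR adjusted p = 0.000973). C1qb averaged 457 ± 218 CPM in Tn and 145 ± 37.1 CPM in WT (1.66, adjusted p = 0.00131). Both complement genes were higher in every Tn tumour. Lyz2, lysozyme, rose by 1.09 (adjusted p = 0.00611), and Apoe, apolipoprotein E, by 0.95 (adjusted p = 0.036). The call of Apoe was lost without any of Tn tumours 1 to 3 or WT tumours 1 to 4, with an edgeR adjusted p between 0.0557 and 0.084, and 9 genes of the list rose also without Tn tumours 4 and 6 and WT tumour 6. The genes of this list that did not pass had log2 fold changes from -0.02 to 0.65, among them Csf1r, the receptor of the macrophage growth factor, at 0.58 (adjusted p = 0.0877), which was 0.74 and passed without Tn tumour 5 (edgeR adjusted p = 0.0129).

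Genes of alternative activation, the state that interleukins 4 and 13 induce, rose in 6 of 9 cases and fell in none, where 19.5% of all genes rose. The median of the list was 1.18. The count was 5 without Tn tumour 2, 5 or 6 or WT tumour 1, 3, 4 or 6, and 7 without Tn tumour 1. Mrc1, the mannose receptor CD206, averaged 161 ± 49.8 CPM in Tn and 80.7 ± 28.6 CPM in WT (log2 fold change 1.00 ± 0.25, edgeR adjusted p = 0.0092). Clec7a, the beta-glucan receptor dectin-1, averaged 87.6 ± 37.0 CPM in Tn and 27.0 ± 10.9 CPM in WT (1.70 ± 0.33, adjusted p = 0.00192). Tgm2, a transglutaminase, rose by 0.81 (adjusted p = 0.000644), whereas Arg1, arginase, had 306 ± 151 CPM in Tn and 135 ± 90.5 CPM in WT and missed the threshold (1.18 ± 0.44, adjusted p = 0.0527; 1.58 without WT tumour 2, edgeR adjusted p = 0.0114). Pdcd1lg2, which encodes the PD-1 ligand PD-L2, rose by 3.78 ± 0.51 (adjusted p = 0.000226), a larger change than that of Mgl2. Retnla, at 0.655 CPM in Tn and 0.123 CPM in WT, passed narrowly (edgeR adjusted p = 0.0486). Chil3 at 0.81 and Egr2 at -0.06 did not pass.

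Of 12 genes of tissue-resident macrophages 2 rose and 2 fell, near the 19.5% and 17.4% of all genes, and the median was -0.10. F13a1, coagulation factor XIII A, averaged 171 ± 116 CPM in Tn and 45.8 ± 15 CPM in WT (log2 fold change 1.90, edgeR adjusted p = 0.00244). The others of the most abundant members did not pass, with log2 fold changes of -0.89 for Gas6, 0.39 for Pf4 and 0.46 for Ccl8. Without WT tumour 2, the highest WT tumour for Pf4, Pf4 was at 0.86 and passed (edgeR adjusted p = 0.0301), and without WT tumour 6 Gas6 was at -0.32. Timd4, a phosphatidylserine receptor, rose by 2.35 (1.74 and not past the threshold without Tn tumour 4, edgeR adjusted p = 0.0696), and the C-type lectin genes Cd209f and Cd209g fell by 2.33 and 2.45 on the log2 scale. Monocyte genes rose in 4 of 10 cases with a median of 1.10; Cx3cr1, the fractalkine receptor, rose by 1.31 (edgeR adjusted p = 0.012), and the changes of Ccr2 (0.98), Ace (0.79) and Plac8 (0.42) did not pass, though Ccr2 did without Tn tumour 5 (edgeR adjusted p = 0.0294). Without Tn tumours 4 and 6 and WT tumour 6 the monocyte median was 0.54. Without WT tumour 3, 4 or 6, 2 monocyte genes rose, and without any of 6 tumours, Tn 1 and 4 and WT 1, 3, 4 and 6, 1 resident macrophage gene did.

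Among the dendritic cell lists the type 1 cDC genes rose most often, 7 of 10, with a median of 1.32, where 19.5% of all genes rose. The count was 5 without WT tumour 1, 3, 4, 5 or 6, and 9 without Tn tumour 5. Batf3 and Irf8, transcription factors these cells depend on, rose by 1.41 and 1.04 (edgeR adjusted p = 0.000265 and 0.00544), Naaa, a lysosomal amidase, by 1.54 (adjusted p = 0.00135), and Tlr3 had 0.22 without passing. Of the 9 shared or type 2 cDC genes tested 4 rose and none fell, with a median of 0.64 and a summed CPM of 229 to 427 in Tn and 189 to 268 in WT. Itgax, which encodes CD11c, averaged 69.6 ± 21.8 CPM in Tn and 44.6 ± 8.98 CPM in WT (log2 fold change 0.64, adjusted p = 0.0238). Klf4, a transcription factor of a type 2 cDC subset, rose by 1.00 and Cd1d1 by 0.85, and Sirpa, which marks type 2 cDC and macrophages, had 0.48 without passing (adjusted p = 0.0816; 0.0241 without Tn tumour 5). Cd209a, a marker of monocyte-related dendritic cells, had 1.13 ± 0.884 CPM in Tn and 3.00 ± 2.01 CPM in WT (-1.41, adjusted p = 0.134), and passed without WT tumour 1 (edgeR adjusted p = 0.0421). Of 7 genes of migratory dendritic cells, Relb rose by 0.45 and Cd200 fell by 0.78, while Fscn1 and Cacnb3 did not pass, and the median was -0.09. Ccr7 at 2.26 (edgeR adjusted p = 0.0565), Ccl22 at 0.91 and Socs2 at -0.09 did not pass either. Ccr7 reached 63.2 CPM in 1 Tn tumour, against a Tn median of 4.01 CPM. In this list 2 genes rose without Tn tumour 1, 2 or 5, and none without Tn tumour 6 or WT tumour 3 or 4. Without WT tumour 4 the edgeR adjusted p was 0.0508 for Itgax, 0.0574 for Cd1d1, 0.0568 for Relb and 0.0507 for Cd200, and 2 shared or type 2 cDC genes rose. The calls of Cd1d1, Relb and Cd200 were also lost without 1 of several other tumours, with an edgeR adjusted p of at most 0.0924.

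Over these 7 myeloid lists together, 33 of 72 tested genes rose and 3 fell, against 19.5% and 17.4% of all genes. The median log2 fold change of the 72 was 0.88, and 9 of them had groups that did not overlap, as did 17.2% of all genes. Among the few with a log2 fold change at least as large as that of Mgl2 were Pdcd1lg2 and the type 1 cDC gene Gcsam. Every Tn tumour was above every WT tumour for Pdcd1lg2, whereas Gcsam, at 3.29 ± 0.91 (SE), had groups that overlapped. The size of the change of Gcsam rested on Tn tumour 4, which had 8.88 CPM where the next Tn tumour had 0.861. With tumour 4 left out the change of Gcsam was 1.59 on the log2 scale (edgeR adjusted p = 0.0221), below that of Mgl2.

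**Figure D3:**
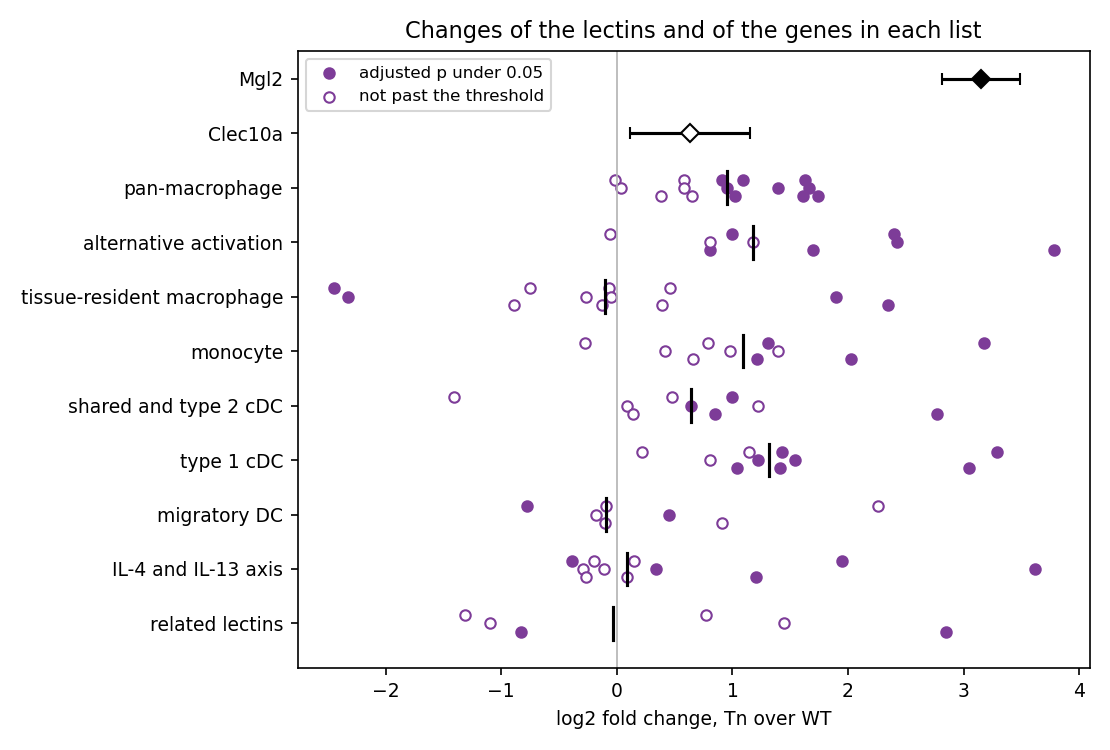
Log2 fold changes, Tn over WT, of Mgl2 and Clec10a (diamonds with SE) and of each tested gene in 9 lists; filled symbols passed an edgeR adjusted p of 0.05, open symbols did not, and black lines are list medians. Mgl2 at 3.15 lies to the right of all but a few genes, and Clec10a at 0.63 lies near the median of the shared and type 2 cDC genes.

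The interleukin 4 and 13 axis holds the cytokines known to induce both lectins with their receptors and signal carriers. Of its 11 tested genes 4 rose and 1 fell, against 19.5% and 17.4% of all genes, and the median was 0.09. Il4 had 1.30 ± 0.0978 CPM in Tn and 1.49 ± 0.351 CPM in WT (log2 fold change -0.20, edgeR adjusted p = 0.398). Il13 was barely detected, at 0.239 ± 0.129 CPM in Tn and 0.0188 ± 0.032 CPM in WT, where it ran from 0 to 0.0823 CPM. It is 1 of the 4 that rose (3.62 ± 0.78, edgeR adjusted p = 0.00354). However, it entered the tested genes through its Tn values, so this call carries little weight. Tslp, an epithelial cytokine that favours type 2 responses, averaged 72.2 ± 63.4 CPM in Tn and 18.6 ± 8.73 CPM in WT (1.95 ± 0.51, adjusted p = 0.0102). Of the receptors and signal carriers, Il2rg, the shared gamma chain, rose by 1.20 (adjusted p = 0.0154) and the kinase gene Tyk2 by 0.34 (adjusted p = 0.0474). Il13ra1 fell by 0.39 (edgeR adjusted p = 0.0439), and Il4ra had -0.27, Jak1 0.15 and Stat6, the transcription factor of the pathway, -0.11, without passing. The call of Il13ra1 was lost without Tn tumours 1, 2, 3 or 4 or WT tumours 1 to 5, with an edgeR adjusted p of 0.0661 to 0.0993.

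The list of related lectins holds galactose-type receptors and members of the CD209 family, known for binding mannose and fucose. Of its 6 tested genes 1 rose and 1 fell, against 19.5% and 17.4% of all genes. Asgr1 and Asgr2 encode the hepatic asialoglycoprotein receptor chains and lie on the same chromosome as the lectins. Asgr1 had 0.215 ± 0.2 CPM in Tn and 0.029 ± 0.0344 CPM in WT and rose by 2.85 ± 0.80 (edgeR adjusted p = 0.0148), and Asgr2 had 0.798 ± 0.431 CPM in Tn and 0.293 ± 0.377 CPM in WT without passing (1.45 ± 0.64, adjusted p = 0.0952). Without WT tumour 2 Asgr2 was at 2.51 and passed (edgeR adjusted p = 0.00195). Colec12, a scavenger receptor with a galactose-type lectin domain made by endothelial and stromal cells, fell by 0.83 (54.8 ± 8.46 CPM in Tn and 97.6 ± 19.0 CPM in WT, adjusted p = 0.000576). Clec4f, the Kupffer cell lectin, was at 0 counts in all 12 tumours. Of the CD209 family members in this list, Cd209b, Cd209d and Cd209e did not pass, with log2 fold changes of 0.77, -1.31 and -1.10; the value of Cd209b rested on Tn tumour 4 and was -2.82 without it (edgeR adjusted p = 0.0444).

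The 3 proteins listed as known carriers of sugars that these lectins bind changed in both directions. Ptprc, which as CD45 is a ligand of the human lectin, averaged 142 ± 93.3 CPM in Tn and 61.2 ± 18.2 CPM in WT (log2 fold change 1.22, edgeR adjusted p = 0.0223). Siglec1, known as a ligand of the mouse lectin of Clec10a, averaged 48.4 ± 17.4 CPM in Tn and 23.2 ± 6.28 CPM in WT (1.06, adjusted p = 0.00993). Muc1, a mucin that carries Tn in carcinomas, averaged 3.42 ± 0.885 CPM in Tn and 14.7 ± 5.08 CPM in WT and fell by 2.1 on the log2 scale (adjusted p = 0.000116). Of 12 tested genes for enzymes that make or extend Tn, 5 rose and 4 fell, against 19.5% and 17.4% of all genes. C1galt1c1 was among those that fell. Galnt1, which starts O-glycans, fell by 0.71 (adjusted p = 0.00139), C1galt1, the client of Cosmc, rose by 0.44 (adjusted p = 0.00261), and Galnt2 and Galnt7 did not pass at -0.07 and 0.12.

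Within the groups no relation of a lectin to the myeloid genes passed a correction. Over 30 within-group correlations of log2 CPM with 7 myeloid list levels and with each other, 0 passed (lowest adjusted p 0.225, exact permutation of 720 pairings). Among Tn tumours Mgl2 was higher where the pan-macrophage level was higher (Pearson r = 0.87, exact permutation p = 0.0361, adjusted 0.225; Spearman rho = 0.89, exact permutation p = 0.0333), and r was 0.95 over the 4 tumours left without the 2 farthest from the median. Among WT tumours the same r was 0.43 (exact permutation p = 0.456; rho -0.03, exact permutation p = 1.0), and 0.09 without the 2 farthest tumours. Clec10a had r = 0.78 with the pan-macrophage level in Tn (exact permutation p = 0.0694; rho 0.83, exact permutation p = 0.0583), which was 0.29 without the 2 farthest tumours. In WT that r was 0.43 (exact permutation p = 0.444; rho 0.49, exact permutation p = 0.356), and 0.77 without the 2 farthest. The lectins themselves had r = 0.66 in Tn (exact permutation p = 0.165; rho 0.60, exact permutation p = 0.242) and r = -0.23 in WT (exact permutation p = 0.537; rho -0.71, exact permutation p = 0.136), and without the 2 farthest tumours r was 0.55 in Tn and -0.64 in WT.

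The other relations with an adjusted p of 0.225 were those of Clec10a with monocyte genes in Tn tumours and with 3 lists in WT tumours. With monocyte genes in Tn r was 0.82 (exact permutation p = 0.0375; rho 0.83, exact permutation p = 0.0583), and 0.90 without the 2 farthest tumours. In WT tumours r was 0.93 with tissue-resident macrophage genes (exact permutation p = 0.025), 0.91 with shared and type 2 cDC genes (exact permutation p = 0.0292) and 0.90 with migratory dendritic cell genes (exact permutation p = 0.0319). Spearman's rho was 0.77 for the resident macrophage list (exact permutation p = 0.103) and 0.60 for each of the dendritic cell lists (exact permutation p = 0.242). Without the 2 farthest tumours r in WT was 0.36, -0.19 and -0.18 for these lists in that order, so the 3 relations rest on those tumours. Adipocyte genes had nearly the order of Clec10a in WT tumours. The adipocyte level, a mean log2 CPM of 8 genes, was -0.56, 3.73, 5.46, 5.20, 5.82 and 7.31 in WT tumours 1 to 6, lowest in tumour 1 and highest in tumour 6, as was Clec10a. Over WT tumours r was 0.98 (exact permutation p = 0.00278, the smallest possible, adjusted 0.133 over 48 relations with the 12 other lists; rho 0.94, exact permutation p = 0.0167), and r was 0.73 without the 2 farthest tumours. Over Tn tumours r was 0.28 (exact permutation p = 0.603; rho 0.03, exact permutation p = 1.0), and 0.15 without the 2 farthest. Of the 8 adipocyte genes 1 fell (4 without WT tumour 1, 2 without Tn tumour 4) and none rose in Tn. Over all genes 17.4% fell and 19.5% rose, so the 1 that fell is near the share of all genes. The median of the 8 was -1.95 (-1.19 without WT tumour 6). Their summed CPM ran from 36.8 to 541 in Tn and from 24.7 to 2380 in WT, and none was at 0 in any tumour. These relations with the 12 other lists were chosen after values were seen. With the adipocyte level as a term in the edgeR fit, also chosen after values were seen, the log2 fold change of Clec10a was 1.46 ± 0.46 and passed the test (adjusted p = 0.0279), and that of Mgl2 was 3.08 ± 0.35 (adjusted p = 0.00014). That fit sets 1 slope for both groups, although r was 0.98 in WT and 0.28 in Tn. Whether Clec10a rises apart from adipocyte genes therefore cannot be read from it. The part of adipocyte or macrophage content in the values of Clec10a was not tested beyond these fits.

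**Figure D4:**
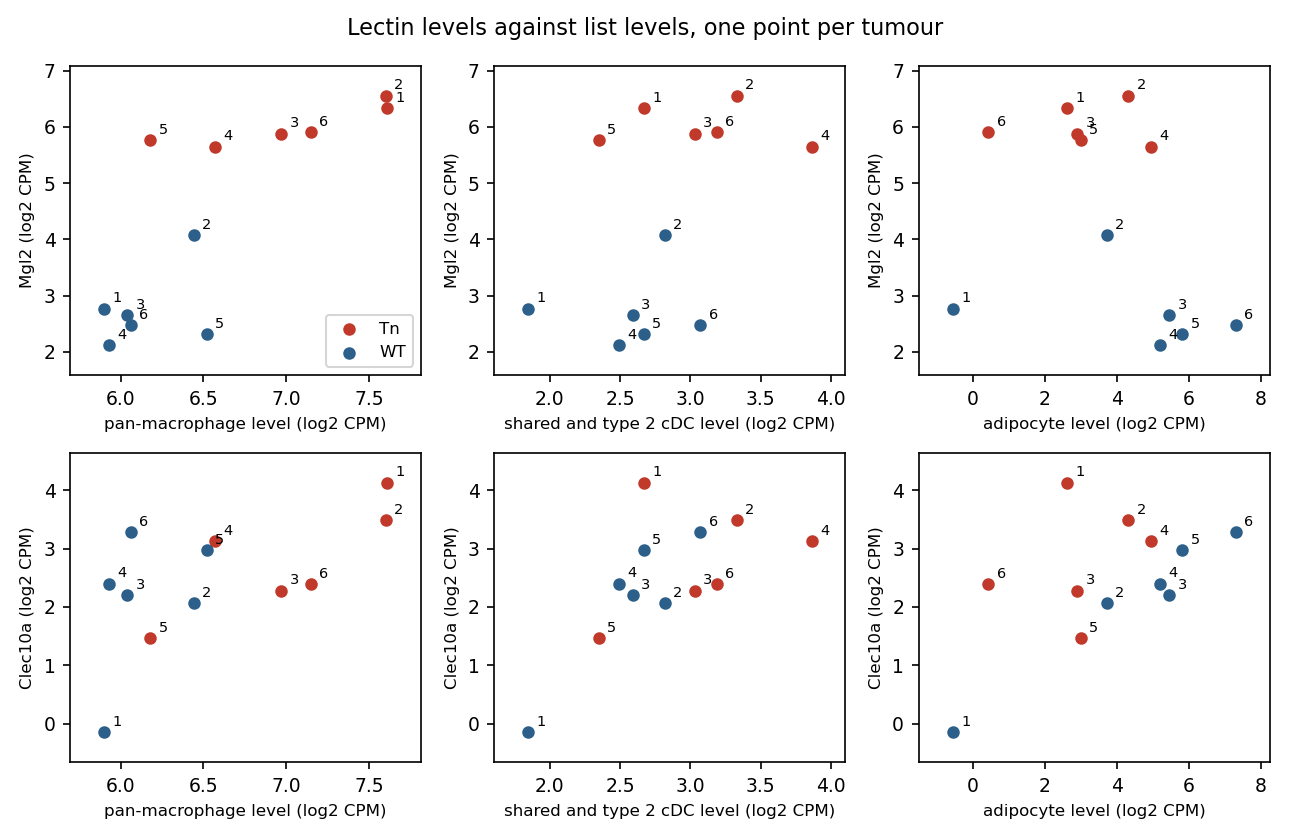
Log2 CPM of Mgl2 (upper row) and Clec10a (lower row) against the pan-macrophage, the shared and type 2 cDC and the adipocyte level, 1 numbered point per tumour. For Mgl2 all Tn points lie above all WT points, and in WT tumours Clec10a and the adipocyte level have nearly the same order, with WT tumour 1 lowest in both.

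The genes most like each lectin were ranked by the Pearson r of log2 CPM over all 12 tumours after each group's mean was taken off, among 14001 tested genes with a mean of at least 1 CPM. Those nearest to Mgl2 were Sec24b, a coat protein of vesicles leaving the endoplasmic reticulum (r = 0.96), Mfsd14a (0.95), Dnajc10, a disulfide reductase of the endoplasmic reticulum (0.95), and Clcc1, a chloride channel protein (0.94). They were followed by the Golgi zinc transporter gene Slc30a7 (0.94), Tor1b, a torsin ATPase (0.92), Snx27, a sorting nexin (0.91), and Aph1a, a gamma-secretase subunit (0.91). None of these 8 passed the Tn against WT test, with log2 fold changes between -0.15 and 0.18. WT tumour 2, the highest WT tumour for Mgl2, was also the highest for Mfsd14a, Tor1b and Snx27 by a wide gap.

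Among those nearest to Clec10a were Cenpx, a centromere protein (r = 0.93), Wfdc18 (0.92) and Apoe (0.92). Marcks, a substrate of protein kinase C (0.91), Scarb1, a receptor for high-density lipoprotein (0.90), the transcription factor gene Lmx1b (0.90) and Arpc3, an actin nucleator subunit (0.90), were also among them. Of these genes, Cenpx, Apoe and Marcks rose in Tn tumours and Lmx1b fell, though Lmx1b missed the threshold without 1 of 5 tumours (Tn 3, 5 and 6, WT 3 and 6; edgeR adjusted p 0.0515 to 0.0774). Mgl2 and Clec10a themselves had r = 0.02, number 6648 of the 14001 genes ranked by likeness to Mgl2.

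By the same measure all 8 adipocyte genes had r above 0.5 with Clec10a (median 0.76), as did 4 of 15 pan-macrophage genes (median 0.47), against 1917 of all 14001 genes. Within the groups, the r of Clec10a with the adipocyte level was 0.98 in WT and only 0.28 in Tn tumours. Gas6, a tissue-resident macrophage gene that encodes the ligand of the receptors Axl and Mertk, had r = 0.81 with Clec10a. For Mgl2, 6 of 15 pan-macrophage genes were above 0.5 (median 0.49, highest Aif1 at 0.57), against 1330 of all 14001 genes. The alternative activation genes had a median of 0.40 with Mgl2, from -0.10 to 0.68 for Mrc1, and the shared and type 2 cDC genes a median of 0.06, from -0.18 for Cd209a to 0.68 for Sirpa. Tumour epithelium genes ran the other way from Mgl2, with a median r of -0.71 over 8 genes, from -0.82 for Cdh1 to -0.12 for Cldn7. Epcam and Cldn4, both at -0.8, were lowest among WT tumours in WT tumour 2, where Mgl2 was highest. Adipocyte genes had a median of -0.22 with Mgl2. These values share the same 12 libraries and are given as a description.

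Along the chromosome the 8 nearest tested genes, 4 on each side, included 1 that rose, Asgr1, and 1 that fell, Bcl6b, against 19.5% and 17.4% of all genes. Bcl6b, a transcriptional repressor gene, had a log2 fold change of -0.76 (edgeR adjusted p = 0.0144). On the side of Mgl2, Asgr2 lay 24.1 kilobases away, Asgr1 72.4, Dlg4 82.8 kilobases away with a log2 fold change of -0.47, and Acadvl 115 kilobases away with -0.10. On the side of Clec10a, Slc16a11 lay 41.9 kilobases away with 0.17, Slc16a13 46.0 with -0.40, Bcl6b 53.3 and Gm21988 64.4 kilobases away with 0.13. The difference in change between the lectins and these neighbours was not tested.

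**Figure D5:**
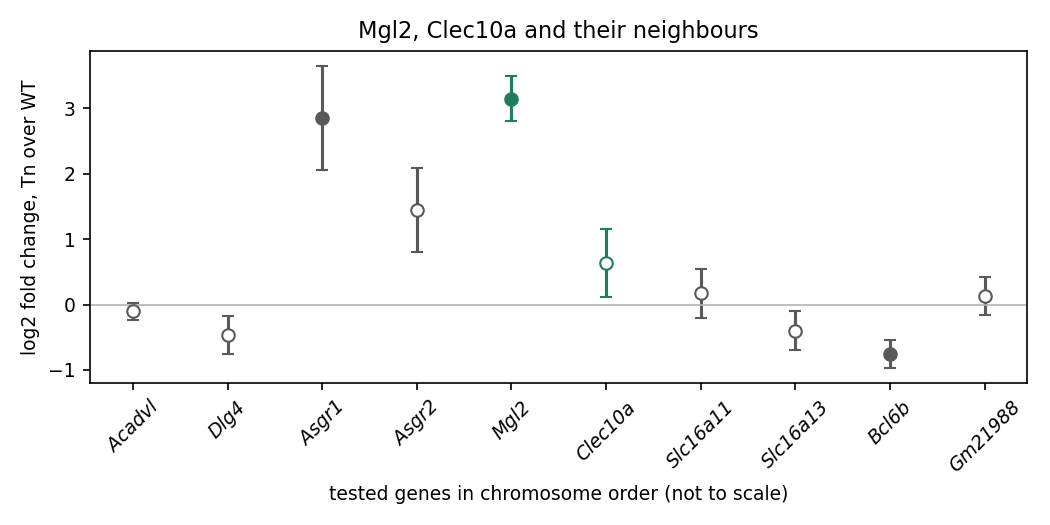
Log2 fold change, Tn over WT, with SE, of Mgl2 and Clec10a (green) and the 4 nearest tested genes on each side (grey) in chromosome order; filled symbols passed an edgeR adjusted p of 0.05. Asgr1, at 2.85, is the one neighbour that rose, from levels under 0.5 CPM in every tumour.

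Other cells of the tumours differed between the groups as well, and their part in the values of the lectins was not tested. All 8 T cell genes and all 6 tested B cell genes rose, where 19.5% of all genes rose and 17.4% fell. The median log2 fold changes of these lists were 3.60 and 6.50, and 2.93 and 1.54 without Tn tumour 4. The summed CPM of the T cell list ran from 42.6 to 430 in Tn and from 7.89 to 21.3 in WT, and that of the B cell list from 6.83 to 1750 in Tn and from 4.54 to 12.8 in WT. Without Tn tumour 4, 4 B cell genes rose, and by limma voom with quality weights 1 did. Of 8 fibroblast genes 7 fell and 1 rose, with a median of -1.55, and of 7 endothelial genes 5 fell, with a median of -0.74. None of 10 neutrophil genes passed the edgeR test, though 6 fell without Tn tumour 4, and of 8 tumour epithelium genes 2 fell. Tn tumour 4, the highest in summed CPM of B cell and T cell genes, had the lowest Mgl2 of the Tn tumours, and without Tn tumours 4 and 6 and WT tumour 6 the log2 fold change of Mgl2 was 3.22 (edgeR adjusted p = 0.000635) and that of Clec10a 1.02 (adjusted p = 0.233).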

How the data were processed

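RNA of 12 tumours, 6 Tn and 6 WT, was prepared as stranded poly(A) libraries and sequenced as pairs, per the labels' protocols. Per the submitters' processing notes, the tools were FastQC, fastp 0.23, STAR 2.7.11a and featureCounts of Subread 2.1.1, on GRCm39. The authors deposited raw counts per gene of Ensembl 112, made without strand and without counting pairs once, per the file headers. Between 66.4% and 72.5% of low counts were even, since most pairs add 2 counts. Totals exceed the reads per sample that the labels state. Of 57186 gene identifiers, 56630 had a symbol and position in GENCODE M39.

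Counts were tested with edgeR 4.0.16 (TMM scaling, filterByExpr, quasi-likelihood test, Benjamini-Hochberg adjustment over 19255 genes) in R 4.3.3. CPM are TMM-scaled; log2 CPM used a prior count of 2. Ratios and correlations were tested by exact two-sided permutation written in Python 3.11.15, with the ranks for Spearman's rho from SciPy 1.17.1. Alternatives were DESeq2 1.42.0, limma 3.58.1 (voom), other scalings and filters, covariates and left-out tumours. The edgeR fit was tested on simulated counts with planted changes, and the permutation tests were not. Any 2 tumours of a group differed by at least 41.4 times their sampling noise (chi-square per degree of freedom), so all were kept.

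Named genes were the lectins, the 4 most abundant tested genes per kilobase of each of 19 lists, the 8 most alike genes, the 4 nearest neighbours on each side and C1galt1c1. Other list genes in the text were chosen after their values were seen. Some genes that met these rules are not reported here. The members and lists were chosen with earlier results of these data known. Of the 2 lectins, 1 is in the RefSeq promoter table, and no promoter was used. The tumours of a group are biological replicates per the labels. Intervals cover counting and tumour-to-tumour variation as edgeR estimates it.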

Additional observations from a re-analysis of the deposited data

Results flagged for a closer look

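A tumour was marked where its gap to the nearest other tumour of its group, divided by the group's range, was above 0.625 on the log2 scale. Chance marks about 1 in 20 groups, and 28 of 254 groups checked were marked.

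For the lectins, WT tumour 2 was the highest WT tumour for Mgl2 (gap 0.67 of the range), WT tumour 1 the lowest for Clec10a (0.643), and Tn tumour 4 the lowest Tn tumour for Mgl2 over Ptprc (0.677). WT tumour 1 was also lowest for the related lectins list (0.751), Ccl8 (0.667) and Arpc3 (0.639). WT tumour 2 was highest for Pf4 (0.634), Mfsd14a (0.728), Tor1b (0.828) and Snx27 (0.684), and lowest for Epcam (0.709) and Cldn4 (0.783), both epithelial genes.

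Tn tumour 4 was highest among Tn tumours for the migratory DC list (0.626), the B cell list (0.758), the neutrophil list (0.646), the endothelial list (0.655), Jak1 (0.65), Cd2 (0.653), Cd79a (0.691), Cd79b (0.82) and Ighd (0.673). Tn tumour 6 was highest for the keratinocyte list (0.74) and Krt16 (0.857) and lowest for C1galt1 (0.713). Of the remaining genes, Siglec1 was lowest in Tn tumour 5 (0.659), Galnt7 highest in Tn tumour 2 (0.665), C1galt1c1 highest in Tn tumour 1 (0.785), and Cd8a lowest in WT tumour 6 (0.773).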

How the results depend on the processing

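The log2 fold change of Mgl2 ran from 2.54 to 3.54 over other scalings, tools, filters, covariates and the block, and from 3.04 to 3.58 with 1 tumour left out, and passed the test in each. That of Clec10a was 0.28 to 0.88 with 1 tumour left out, -0.58 with the pan-macrophage level as covariate and 1.46 with the adipocyte level, an alternative added after values were seen. The adipocyte fit sets 1 slope for both groups, though Clec10a followed that level closely in WT tumours only. At an adjusted p under 0.01, 4025 genes were called, 2109 higher and 1916 lower, and with 1 tumour left out 6131 to 7061, 3210 to 3778 higher and 2833 to 3283 lower. Same-numbered tumours deviated with r from -0.12 to 0.16, and 1 of 12 tumours correlated best with its own number, so the numbers were not taken to pair tumours. With the replicate block 5876 genes were called, Mgl2 was at 3.28 and Clec10a at 0.54.

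The ratio differences with 1 tumour left out were 2.31 to 3.05 for Mgl2 over Clec10a, 2.26 to 2.62 over the pan-macrophage level, 2.64 to 3.02 over the cDC level and 2.05 to 2.59 over Ptprc, and for Clec10a -0.58 to 0.07, -0.15 to 0.35 and -0.85 to -0.01 over these 3 levels. Without Tn tumours 4 and 6 and WT tumour 6, Mgl2 over Clec10a was 2.40 and Clec10a was 0.02 over the pan-macrophage level and 0.30 over Ptprc; with the list level as a median Clec10a was 0.19 over pan-macrophage genes. As pairs in a replicate block (exact sign-flip test, smallest p 0.0312), the Mgl2 differences were 2.59, 2.41, 2.79 and 2.24 with adjusted p of 0.109 and then 0.0729 for each of the other 3.

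Turned round, with a call in the main or the other fit, were Cd209b, Ngp and Krt16. Cd209b was -2.82 without Tn tumour 4 and up to 1.12 without others. Ngp was -3.98 without Tn tumour 4 and without the 3 tumours, and up to 1.04. Krt16 was -0.51 by voom, -0.55 with the replicate block, -1.52 without the 3 tumours, -1.64 without Tn tumour 6, and up to 5.68. The cause was not tested. Of the other values of named genes 2031 kept their call or their lack of one, 95 lost and 30 gained a call. Changes of sign with no call in either fit are counted among the 2031. Of the list counts, 703 stayed within 1.5 times while 117 moved by more. Correlations were rerun without the 2 farthest tumours and not with each tumour left out. Limits: 6 tumours a group, bulk RNA, no strand, pairs counted as 2, and shared sequence between the lectins.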
